A study of Mus musculus with 2 samples.

Results

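The regions described here were methylated stretches of liver DNA that were well covered in the library of a Pemt-/- mouse and were not listed in the library of a Pemt+/+ mouse. They were chosen from the longer list of enriched regions of each mouse: a region was taken when it held 15 or more sequenced reads (tags) in Pemt-/- and shared not even 1 bp with any Pemt+/+ region. The rule found 1581 regions, or 3.81% of the 41497 Pemt-/- regions of 15 or more tags. The other 39916 overlapped a Pemt+/+ region and served as the comparison. The whole Pemt-/- list held 97063 regions, and both lists together held 228342. The same rule applied to the Pemt+/+ list found 17582 of 80566 regions, 21.8%.

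Both mice ate high fat-high sucrose (HFHS) chow from 5 weeks of age until the livers were taken at 25 weeks, although the paper's Methods describe a shorter feeding before the enrichment step. The mice were male, their strain was not given, and Pemt was missing from the whole animal, so that the liver was not the only organ affected. There was 1 library per genotype, each labelled with a single animal number. No spread between mice can be given, no test compares the genotypes, and every difference is one between 2 libraries. Tissue could not be checked by marker genes, because methylated DNA carries no transcript levels, and a region that is missing from a list may hold too few reads to be called and still be methylated.

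Pemt makes phosphatidylcholine in the liver by methylating phosphatidylethanolamine, and it takes its methyl groups from S-adenosylmethionine, which also supplies DNA methyltransferases. In mammalian DNA most cytosines followed by guanine (CpG) are methylated, in gene bodies and between genes alike, while CpG-rich promoters are mostly free of it. A kit with a methyl-CpG-binding protein captures such DNA, and reads pile up where methylated CpGs stand close together.

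Only 3 of the 1581 regions reached the 5′ end of a transcript, and the promoters of those genes show how different these starts are in CpG content. Each line gives the 250 bases before the start from RefSeq, with CpGs in capitals. For Dpep3, a membrane dipeptidase, this is chr8:105979420-105979669 on the minus strand. For H2ac1 (Hist1h2aa in the lists), a testis histone H2A, it is chr13:23934187-23934436 on the plus strand. For Uts2b (Uts2d in the lists), which encodes the peptide urotensin 2B, it is chr16:27370240-27370489 on the minus strand. These positions are of the build GRCm38.p6, whereas all other positions are those of the deposited lists, for which the submitters' processing notes name mm9.
Dpep3: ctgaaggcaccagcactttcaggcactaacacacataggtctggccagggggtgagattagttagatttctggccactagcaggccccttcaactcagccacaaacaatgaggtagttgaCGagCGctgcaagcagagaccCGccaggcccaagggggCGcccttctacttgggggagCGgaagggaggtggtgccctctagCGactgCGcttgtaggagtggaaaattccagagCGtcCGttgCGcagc
H2ac1: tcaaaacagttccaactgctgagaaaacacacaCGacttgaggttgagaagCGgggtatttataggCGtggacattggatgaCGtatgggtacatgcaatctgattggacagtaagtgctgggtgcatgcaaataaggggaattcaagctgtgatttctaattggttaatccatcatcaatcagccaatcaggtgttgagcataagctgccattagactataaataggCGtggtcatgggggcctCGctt
Uts2b: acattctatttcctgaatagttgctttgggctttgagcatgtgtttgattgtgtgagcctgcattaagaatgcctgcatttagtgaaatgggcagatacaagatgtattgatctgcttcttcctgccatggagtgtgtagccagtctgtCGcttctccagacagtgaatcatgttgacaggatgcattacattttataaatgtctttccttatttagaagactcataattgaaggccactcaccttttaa

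The Dpep3 promoter held 10 CpGs, that of H2ac1 6 and that of Uts2b 1. Over all 32851 promoters of that table the median was 6 CpGs, with quartiles of 2 and 16. Dpep3 was reached by a region with 30 tags (chromosome 8, 108502510 to 108503502), and the nearest Pemt+/+ region held 26 tags at 2889 bp. The region at Uts2d held 16 tags (chromosome 16, 27370140 to 27370750), and no Pemt+/+ region lay within 52541 bp. The region that covered all of Hist1h2aa held 16 tags (chromosome 13, 24026285 to 24026948), but a Pemt+/+ region with 66 tags began or ended only 79 bp away. Of the 3, the Uts2d region was therefore the one farthest from methylated DNA listed in Pemt+/+.

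Most of the 1581 regions stood just above the limit of 15 tags. Their median was 17 tags, with quartiles of 15 and 19, against a median of 21 in the regions that overlapped. From 15 to 19 tags were held by 78.2% of them, and 40 regions held 30 or more. These values follow in part from the rule and were not tested. On either side of the limit, 456 unshared regions held 15 tags and 577 held 14 tags. They were much alike: the median fold enrichment was 14.1 in both, the median score 82.8 and 78.2, and a transcript was touched by 47.1% and 46.1%. The score is 10 times the −log10 p-value of the peak caller.

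Fold enrichment, the ratio of reads in a region to the local background, differed more than the tags did. The rule did not use it, but in both mice regions of low fold more often lacked a counterpart. The median was 12.3 in the Pemt-/- only regions (quartiles 9.43 and 17.8) and 20.8 in the overlapping ones. When the overlapping regions were weighted to the same tag numbers, their median fold was still 20.2. Pemt+/+ regions of 22 or more tags, a limit described below, showed the same order. Their median fold was 13.4 without and 22.8 with an overlapping Pemt-/- region, so low fold was not particular to Pemt-/-. A fold under 10 was found in 30.7% of the Pemt-/- only regions (95% Wilson confidence interval 28.5 to 33.0%) and in 6.54% of the overlapping ones (6.30 to 6.78%). Such intervals treat regions as independent draws and cover counting error only.

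**Figure D1:**
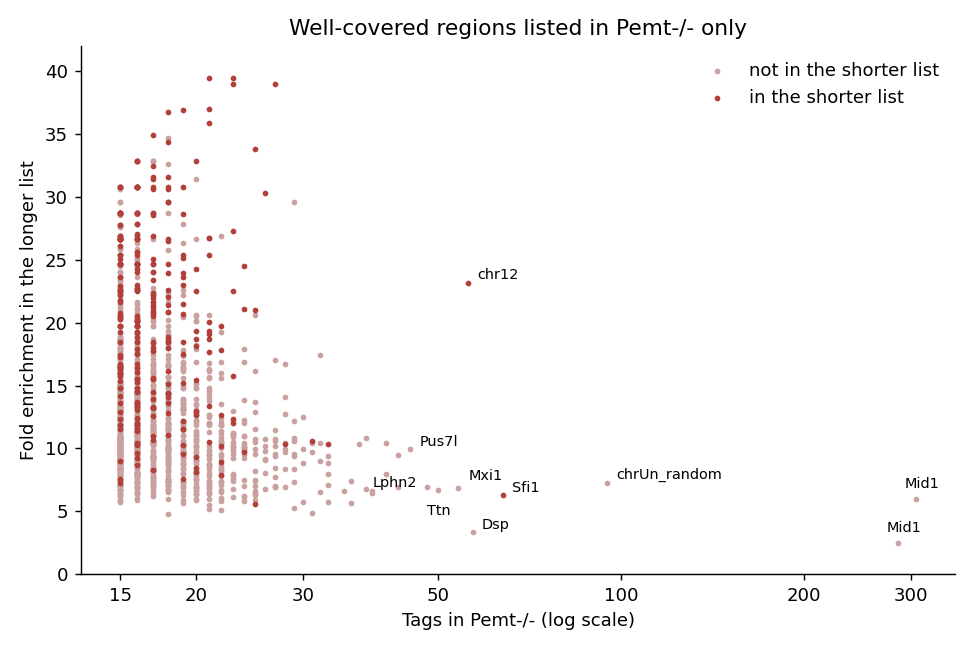
Fold enrichment against tags (log scale) for the 1581 well-covered regions listed in Pemt-/- only, 1 point per region, dark where the region is also in the shorter Pemt-/- list. Points crowd near 15 tags, of the 10 regions with the most tags all but the one on chromosome 12 have folds under 10, and the regions of the shorter list lie mostly high on the fold axis.

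The share of regions without a counterpart was lower at higher tags and folds, but for the highest tags and the lowest folds. It was 9.51% at 15 tags, 2.08% at 21 to 25 tags and 0.498% at 31 to 50 tags, with 0.731% at 51 or more (7 of 958 regions). By fold it was 20.7% from 6 to 8, 5.34% from 12 to 15 and 0.667% at 30 or more. Pemt+/+ regions showed the same order at higher levels, from 47.6% at 15 tags to 5.50% at 31 to 50 tags. Pemt+/+ tags were higher in general: over 79393 overlapping pairs, Pemt-/- tags divided by Pemt+/+ tags had a median of 0.682. With the limit raised to 22 tags, 10.5% of the Pemt+/+ regions overlapped no Pemt-/- region (10.3 to 10.8%), against 3.81% in Pemt-/-. These shares are not like for like, because the raised limit left the lists to be overlapped unchanged. Pemt-/- regions were set against 131279 Pemt+/+ regions of 9 or more tags. Pemt+/+ regions were set against 97063 Pemt-/- regions of 8 or more tags. Total reads per library are not given in the lists, so that depth of sequencing and genotype cannot be told apart.

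**Figure D2:**
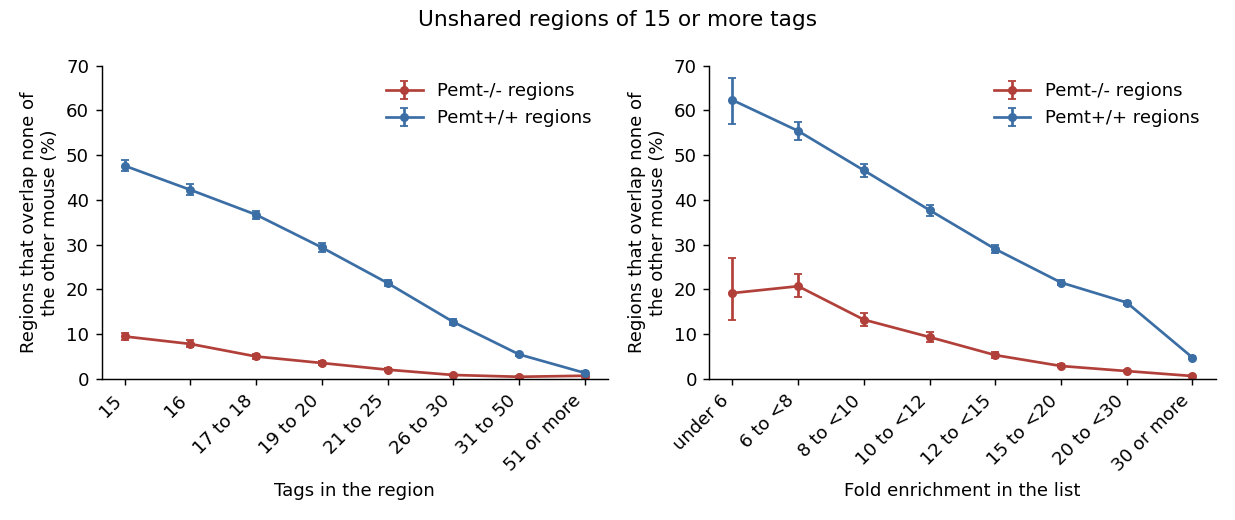
Share of regions of 15 or more tags that overlap no region of the other mouse (%), by tags (left) and by fold enrichment (right), with 95% Wilson intervals as bars. Both lines go down to the right, apart from the Pemt-/- values at 51 or more tags and at folds under 6, and the Pemt-/- line starts at 9.51% at 15 tags where the Pemt+/+ line starts at 47.6%.

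Position relative to genes also differed. Of the Pemt-/- only regions, 50.2% were inside or overlapping a RefSeq transcript (47.8 to 52.7%), against 39.4% of the overlapping regions (38.9 to 39.9%). Put the other way, 794 of the 16523 Pemt-/- regions of 15 or more tags that touched a transcript, 4.81%, were in Pemt-/- only. Conversely 41.2% had no transcript within 10 kb (38.8 to 43.7%), against 52.3% (51.8 to 52.8%). Equal tag numbers did not change the comparison, since the weighted share inside or overlapping was 39.3%. Equal fold enrichment did: the overlapping regions then had 46.2%, or 45.4% when tags and fold were matched together, still below the Pemt-/- only regions. Low fold and gene location moved together: in the overlapping regions 56.8% of those with a fold from 6 to 8 touched a transcript, and 30.5% of those at 30 or more. The Pemt-/- only regions had 56.7% and 20% (of 50 regions) in the same classes, so that they were not above the overlapping regions at every fold. In all other fold classes they were above. From 12 to 15 they had 49.1% against 45.4%, and from 20 to 30 they had 44.0% against 36.5%. In Pemt+/+, with the limit of 22 tags, 45.4% of the unshared and 38.7% of the shared regions were inside or overlapping a transcript.

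By class, 773 regions (48.9%) lay wholly inside a transcript. The 3′ end was overlapped by 20 regions, 1.27% (0.820 to 1.95%), against 0.837% of the overlapping set. The 5′ end was reached by 0.190% (0.0646 to 0.556%) and 0.336%, so neither end differed beyond the counting intervals. Upstream regions within 10 kb made up 8.35% (7.08 to 9.82%) against 6.29%, and downstream regions 8.79% (7.49 to 10.3%) against 6.81%. With tags and fold matched, the overlapping set had 6.38% upstream and 8.46% downstream, the latter inside the interval. Regions that lay upstream or downstream of a transcript without touching any made up 8.54% (7.26 to 10.02%) against 8.27%, which did not differ beyond the counting interval. Within the upstream group 20 of 132 regions lay under 2 kb from the transcript, 15.2% against 14.7% in the overlapping set. The closest were at Lrrc67 (15 tags, 29 bp upstream), Plekhg4 (15 tags, 143 bp) and Ablim1, an actin-binding LIM protein (15 tags, 202 bp). Bsg, the cell surface glycoprotein basigin, had a region of 16 tags 431 bp upstream with a fold of 30.8, and its nearest Pemt+/+ region held 12 tags at 6722 bp. Mup21, of the major urinary protein family that the liver secretes, had 19 tags 701 bp upstream, and the nearest Pemt+/+ region, also with 19 tags, was 12146 bp away. The lists do not say whether a region inside a transcript is exonic or intronic.

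**Figure D3:**
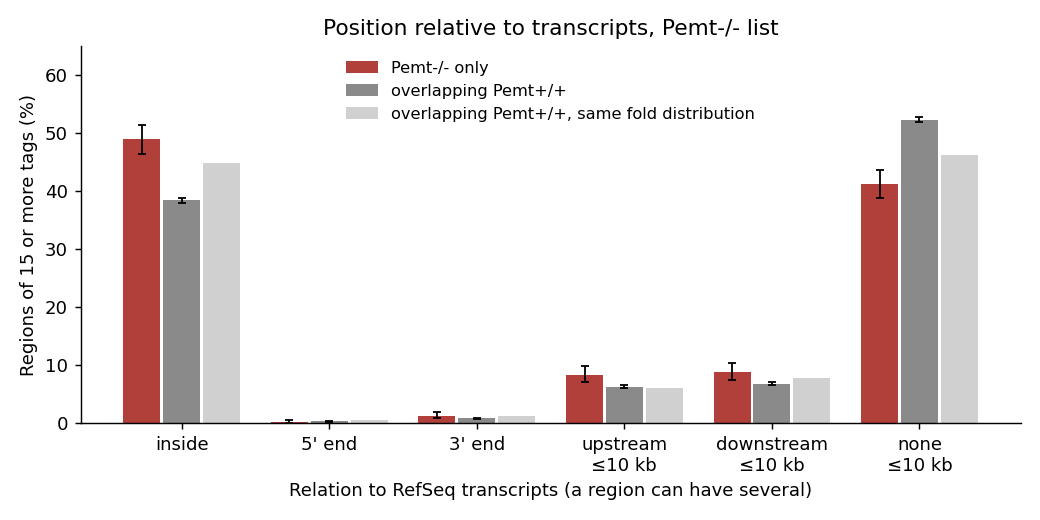
Share of Pemt-/- regions of 15 or more tags (%) in each relation to RefSeq transcripts, for regions in Pemt-/- only, for regions that overlap Pemt+/+, and for the latter weighted to the same fold distribution; bars on the first and second are 95% Wilson intervals. Regions inside a transcript make up 48.9%, 38.4% and 44.8%, and those with none within 10 kb 41.2%, 52.3% and 46.2%.

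Most Pemt-/- only regions, 79.5%, had a Pemt+/+ region within 5 kb. Their median distance to the nearest Pemt+/+ region was 1940 bp, and 31.4% (29.1 to 33.7%) had one within 1 kb. In the overlapping set the nearest further Pemt+/+ region was at a median of 4292 bp, and 16.6% had one within 1 kb. At equal fold these values were 2325 bp and 26.1%, and 76.2% had one within 5 kb. Unshared Pemt+/+ regions of 22 or more tags lay at a median of 2592 bp from the nearest Pemt-/- region. Another Pemt-/- region lay within 5 kb of 66.2% of the Pemt-/- only regions (63.8 to 68.5%). The overlapping regions at equal fold had 68.4%, so closeness to other Pemt-/- regions was not particular to the Pemt-/- only set. The neighbour in Pemt+/+ held a median of 22 tags, and in 606 cases, 38.3%, it overlapped no Pemt-/- region, close to the 38.4% of all Pemt+/+ regions. At the other extreme 151 regions, 9.55%, had no Pemt+/+ region within 10 kb. The shortest distance was 10 bp, and 8 regions lay within 50 bp, while 11 regions of the overlapping set shared less than 10% of the longer region.

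**Figure D4:**
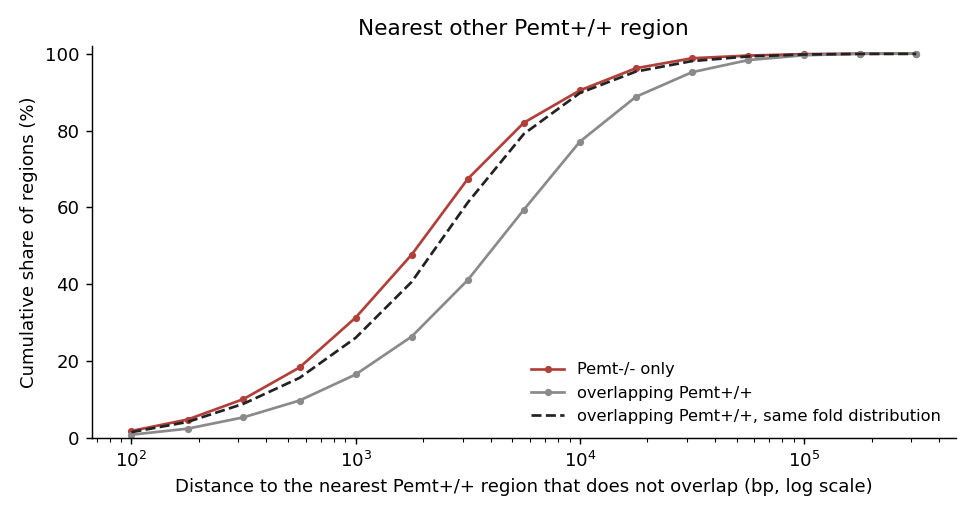
Cumulative share of Pemt-/- regions of 15 or more tags (%) by distance in bp (log scale) to the nearest Pemt+/+ region that does not overlap them. The curve of Pemt-/- only regions lies to the left of that of overlapping regions, with medians of 1940 and 4292 bp, and close to the dashed curve of overlapping regions at the same fold, with 2325 bp.

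Split by fold, the regions formed a graded series. The 485 with a fold under 10 had a median of 1342 bp to the next Pemt+/+ region, and 56.3% of them touched a transcript. The 794 with folds from 10 to 20 lay between, at a median of 1748 bp and 50.4%. The 302 with a fold of 20 or more stood farther off, at 6797 bp, and 40.1% of them touched a transcript. A shorter Pemt-/- list was deposited beside the longer one, with 2160 regions, of which 387 held 15 or more tags. Among these 387, 273 were Pemt-/- only regions with the same start, end and tags. That was 17.3% of the Pemt-/- only regions (15.5 to 19.2%), against 0.273% of the overlapping regions (109 of 39916), or 0.125% at equal fold. The 273 made up 3.51% of the regions with a fold under 10, 14.5% of the intermediate ones and 46.7% of those with a fold of 20 or more. Their median fold in the shorter list was 8.96. The false discovery rate given there was 100% for 272 of them and 0% for 1. What the shorter list compares is not given in the sources used here, and it was made from the same reads, so that it is no independent measurement.

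The 10 regions with the most tags were mostly in genes and had low folds. The first pair lay side by side inside Mid1, a microtubule-associated ubiquitin ligase whose gene crosses the pseudoautosomal boundary of the mouse X chromosome. One held 306 tags (X, 166423441 to 166424310) at a fold of 5.96 and the other 286 tags (X, 166422128 to 166423298) at a fold of 2.52. Pemt+/+ had 2 regions within 6 kb of them, with 581 and 569 tags, and the second overlapped a Pemt-/- region of 321 tags. On the side of the 581 tags no Pemt-/- region was listed within 6 kb.

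Next came a region of an unplaced contig with 95 tags, 221 bp from a Pemt+/+ region of 300 tags, and a region in Sfi1, a centrin-binding protein of the centriole, with 64 tags (chromosome 11, 3078842 to 3079663). How reads from near-identical copies were placed is not given in the sources used here, so values in the unplaced contig and other repeated sequence are uncertain. Dsp, the desmosome protein desmoplakin, had 57 tags (chromosome 13, 38283770 to 38284854) at a fold of 3.32. The Pemt+/+ mouse had 54 tags 1327 bp to one side and a long region of 197 tags to the other, which overlapped a pair of further Pemt-/- regions with 74 and 33 tags.

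Mxi1, a MAX-binding repressor, held 54 tags (chromosome 19, 53425282 to 53426795) and the nearest Pemt+/+ region 27 tags, 5341 bp away. In Ttn, the giant sarcomere protein titin, a region of 50 tags (chromosome 2, 76560645 to 76561529) was the only one of either mouse within 6 kb. Its fold was 6.7, and the nearest Pemt+/+ region, 7636 bp away, held 521 tags. Lphn2, an adhesion receptor, had 48 tags 192 bp from 68 Pemt+/+ tags, and Pus7l, a pseudouridine synthase-like protein, 45 tags 1635 bp from 85 Pemt+/+ tags. The one region among the 10 with a high fold was on chromosome 12 (48497935 to 48498484), with 56 tags, a fold of 23.2 and no transcript within 10 kb. It was also the one with an FDR of 0% in the shorter list, and the nearest region of either mouse was 17448 bp away or farther.

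Ranked by score, 8 of the 10 leading regions had no transcript within 10 kb, in contrast to the ranking by tags. They included a region with 18 tags on chromosome 1 (43795282 to 43795562) at a fold of 34.4, and one with 21 tags on the same chromosome (82903394 to 82903745) at a fold of 39.5, whose nearest Pemt+/+ region held 10 tags at 20265 bp. Kcnh7, a voltage-gated potassium channel, was the gene of the third region, with 24 tags at a fold of 24.5, 1700 bp from a Pemt+/+ region of 50 tags. Mid1 was the other gene in this ranking. Of the 10, 8 were also in the shorter list.

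In all, 974 genes were paired with a Pemt-/- only region, 11.2% of the 8660 genes with any Pemt-/- region of 15 or more tags. Of these, 855 had 1 such region, 98 had 2 and 21 had 3. Genes with one were longer, with a median of 57.9 kb (quartiles 20.3 and 135 kb) against 29.9 kb (12.5 and 72.8 kb) for genes with overlapping regions only. They also had more regions to begin with, a median of 3 of 15 or more tags against 1. Among genes with a single such region 4.61% had a Pemt-/- only region, and among genes with 10 or more 49.6% did, while the share of gene-region pairs that were Pemt-/- only stayed between 4.61 and 5.45%.

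At equal region numbers the order of the median gene lengths was turned round, though no intervals were computed for these medians. Genes with a Pemt-/- only region had a median of 16.2 kb against 18.9 kb where a gene had 1 region, 45.6 against 57.6 kb at 3 to 4 regions, and 268.0 against 310.9 kb at 10 or more. Counted by region, those inside or overlapping a gene lay in genes of a median 83.6 kb (95% interval of the median 74.7 to 93.5 kb), below the 108 kb (105.9 to 110.5 kb) of the overlapping set. At equal fold the latter was 94.2 kb. A Pemt+/+ only region of 15 or more tags was also present in 672 of the 974 genes, 69.0%, against 48.7% of all 8660 genes, but genes with more regions have more of both kinds.

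**Figure D5:**
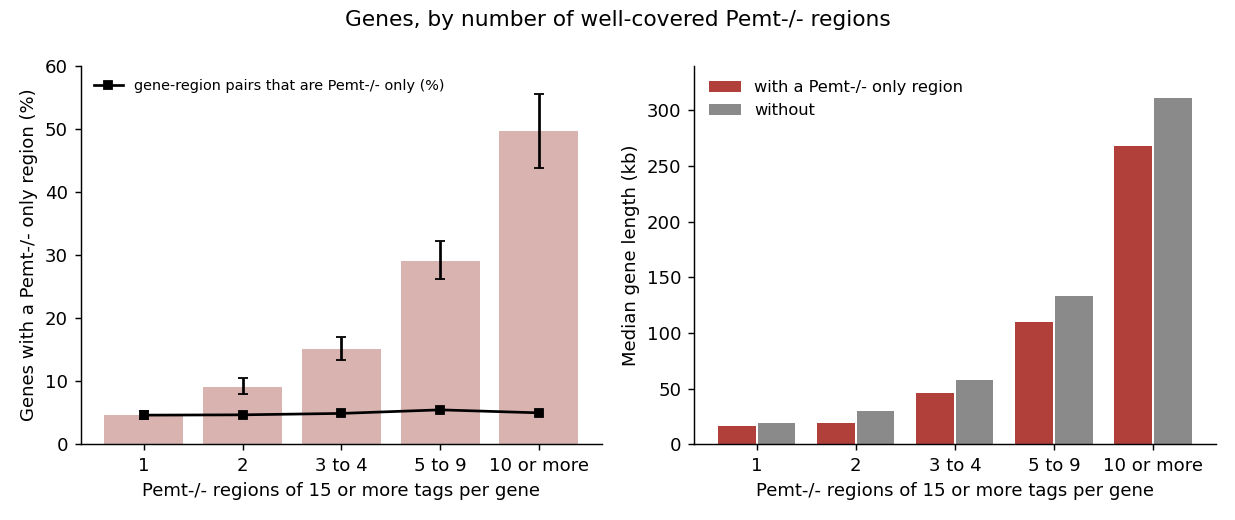
Genes grouped by their number of Pemt-/- regions of 15 or more tags: left, share of genes with a Pemt-/- only region (bars, %, with 95% Wilson intervals) and share of gene-region pairs that are Pemt-/- only (line, %); right, median gene length in kb for genes with and without one. The bars climb from 4.61 to 49.6% while the line stays near 5%. In each of the 5 groups genes with a Pemt-/- only region have the lower median length.

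Genes with 3 of these regions came from many functions and had mostly low folds. Slc38a4, an amino acid transporter of the liver, had 16, 15 and 38 tags at folds from 9.0 to 10.8. The nearest Pemt+/+ regions held 58 to 60 tags and lay 400 to 2974 bp away. Gas2l3, a linker of microtubules and actin, had 17, 24 and 16 tags within about 5 kb, with Pemt+/+ regions of 31 and 51 tags beside them. In Hmga2, an architectural chromatin protein, the 3 regions held 16, 23 and 24 tags, and in Foxp1, a forkhead transcription factor, 21, 16 and 28. Irak4, the kinase of interleukin-1 and Toll-like receptor signalling, shared with Pus7l the adjoining regions of 41 and 45 tags, which lay upstream of it, and had 15 tags inside.

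Other genes of this kind repeated the picture of modest tags close to a Pemt+/+ region. Kif21a, a kinesin motor, had 25, 17 and 16 tags, each region within 702 bp of Pemt+/+ regions of 57 or 58 tags. Maml3, a coactivator of Notch signalling, had 18, 18 and 16 tags in 3 of its 31 regions. In Lphn2 the third region stood out from the other two, with 19 tags at a fold of 23.9, and it was in the shorter list, although 40 Pemt+/+ tags lay 162 bp away.

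Higher folds were found in a few of these genes. Cabin1, a calcineurin-binding protein, had 16, 17 and 18 tags at folds of 26.7, 15.8 and 14.8. Rgl1, an exchange factor for the GTPase Ral, had 17, 15 and 15 tags at folds of 20.9, 14.8 and 20.5, and the nearest Pemt+/+ regions held only 9 to 16 tags. In 194 genes every region of 15 or more tags was Pemt-/- only, in 190 of them because there was just 1, and 4 genes had 2: Pcsk4, Csdc2, Pmm1 and B230399E16Rik. Pcsk4 is a proprotein convertase, and both its regions, with 15 and 18 tags, lay outside the transcript. Csdc2, an RNA-binding protein, and Pmm1, a phosphomannomutase, are neighbours and shared the same regions, with 17 and 15 tags.

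A set of 10 gene lists related to the liver, to Pemt and to other cells were followed. Of their 326 genes, 174 had a Pemt-/- region of 15 or more tags and 23 had a Pemt-/- only one, 13.2% (8.97 to 19.1%), near the 11.2% of all genes. Counted by region the share was 3.80% of 736, below the 4.95% of all gene-region pairs. Of the 736, however, 450 belonged to the list of long neural genes, with a share of 2.44%. Lists of this size have wide intervals, and nothing is called particular to any of them.

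Liver transcription factors had 4 of 11 genes, 36.4% (15.2 to 64.6%). Inside Foxa3, a liver pioneer factor, there were 21 tags (chromosome 7, 19599305 to 19600211) at a fold of 15.7, with 20 Pemt+/+ tags at 8298 bp. Prox1 had 19 tags inside it. Ppara, the receptor that drives fatty acid oxidation, had 27 tags 8425 bp downstream, but with 74 Pemt+/+ tags 448 bp from the region. For Foxa3 it was the only Pemt-/- region of 15 or more tags.

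In the DNA methylation machinery 2 of 9 genes were found. Dnmt1, the maintenance methyltransferase, had 2 of its 3 regions in Pemt-/- only, with 19 tags at a fold of 8.73 and 15 tags at a fold of 16.8, while Pemt+/+ had 4 unshared regions of its own there. Mbd2, a methyl-CpG-binding protein, had 20 tags 1784 bp downstream. Of 14 phosphatidylcholine and one-carbon genes only Mtr was found, the methionine synthase that remethylates homocysteine, with 15 tags 2383 bp upstream at a fold of 24.5. At Pemt itself both regions of 15 or more tags, with 31 and 19 tags, overlapped Pemt+/+ regions, with 35 and 25 tags.

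Lipid metabolism had 3 of 20 genes. Elovl6, a fatty acid elongase, held 17 tags with 35 Pemt+/+ tags 263 bp away. Lpin1, a phosphatidate phosphatase, held 19 with 21 at 198 bp. Both thus had a close Pemt+/+ neighbour. Cell cycle and apoptosis genes had 2 of 18. Ccnd2, which encodes cyclin D2, had 22 tags, and the F-box protein gene Fbxo31 had 20 tags at a fold of 7.82. The Fbxo31 region lay 5302 bp from the nearest Pemt+/+ region, which held 9 tags. It was 1 of 2 Pemt-/- regions of 15 or more tags there, and Pemt+/+ had 1 unshared region of its own. The paper reports enhanced methylation of this gene, which libraries without replicates cannot test. Fibrosis genes had 1 of 12, the growth factor gene Tgfb2, with 18 tags. Secreted hepatocyte proteins had 1 of 11, Ttr, with 15 tags 5098 bp downstream.

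Long neural adhesion and synapse genes had 7 of 50 (95% interval 6.95 to 26.2%), although their median length was 1137 kb. By region only 11 of 450, 2.44%, were Pemt-/- only. Robo1, an axon guidance receptor, had 19, 16 and 25 tags in 3 of its 31 regions. Cntn5, an adhesion molecule, had 15 tags at a fold of 22.2, and no Pemt+/+ region lay within 56862 bp. Imprinted genes had 2 of 18: inside Kcnq1, a potassium channel, there were 17 tags at a fold of 32.8, and over the 3′ end of Grb10, an adaptor of insulin signalling, 16 tags at a fold of 24.4. Both were over 5 kb from a Pemt+/+ region. None of 11 genes of leukocytes and other liver cells had one, where a count of 0 leaves an upper limit of 25.9%.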

How the data were processed

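Methylated liver DNA of 1 Pemt-/- and 1 Pemt+/+ mouse was captured by the authors, sequenced on a Genome Analyzer IIx and deposited as 2 lists of regions per mouse. The labels mention bisulphite conversion before capture, which the paper's Methods do not. Per the labels, CASAVA version 1.8.2, Bowtie and mm9 were used. The region names are those of MACS, whose version, settings and control, like the handling of duplicate reads, are not given in the sources used here. Tags are deposited as raw counts of reads per region. The fold enrichment is the authors' ratio over background, the score is deposited as 10 times the −log10 p-value, and the FDR is deposited as a percent. Positions are deposited in bp.

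Each region was used once. Overlap needed 1 bp. Distances run between the nearest ends. Overlaps and distances were checked on simulated data, and the number of overlaps also against bedtools version 2.31.1. Gene pairs and relations to transcripts are those of the lists, up to 10 kb. Gene lengths came from a RefSeq table (GRCm38.p6), in which 99.5% of 13071 gene identifiers were found. Regions overlapping Pemt+/+ were weighted to the tags of the Pemt-/- only regions (exact up to 30 tags) and, a choice made after seeing the data, to their fold. The Pemt+/+ limit of 22 tags was also set after seeing the data. Shares carry 95% Wilson intervals. Python version 3.11.15, pandas version 2.3.3, numpy version 2.4.6, scipy version 1.17.1 and matplotlib version 3.10.9 were used. The regions and gene lists were chosen with earlier results of these data known. Named were the 10 regions with the most tags and with the highest scores, genes with several regions or one at the 5′ end, and listed genes, of which some are not reported here. The regions nearest upstream of a transcript were named after their values were seen. Alternatives were a limit of 20 tags, an overlap of 50% of both regions, a gap of up to 500 bp, the upper 50% of scores and autosomes only. The lists hold 1582080 tags in Pemt-/- and 2847831 in Pemt+/+.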

Additional observations from a re-analysis of the deposited data

How the results depend on the processing

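No paired analysis was possible because there was a single library of each genotype. Of 44 values recomputed under the listed alternatives, 25 moved (a share or median left its interval, or a count changed over 1.5 times), and with autosomes only none moved. Under each of the 5 alternatives Pemt-/- only regions were inside or overlapping a transcript more often than the overlapping ones.

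A limit of 20 tags left 345 regions, 1.51% of those covered, with 54.5% inside or overlapping a transcript, 37.7% with none within 10 kb, a median gene length of 65.5 kb, 15.1% in the shorter list, 42.3% with a Pemt+/+ region within 1 kb and 5.80% of the listed genes. An overlap of 50% of both regions raised the number to 3635 (8.76%), with 46.5% inside or overlapping, 45.5% with none, 7.95% in the shorter list, 70.2% within 1 kb and 29.3% of the listed genes, since partly overlapped regions were then counted. A gap of up to 500 bp lowered the share to 3.17%, with 19.6% in the shorter list and 17.6% within 1 kb. The upper 50% of each list by score gave 4375 regions (12.6%), because Pemt+/+ regions of low score were dropped, with 43.9% inside or overlapping, 47.4% with none, 6.72% in the shorter list, 10.7% within 1 kb and 32.0% of the listed genes. Weighting to fold, chosen after seeing the data, gave the overlapping regions 46.2% inside or overlapping, 46.2% with none and a gene length of 94.2 kb; with tags and fold these were 45.4%, 46.3% and 94.6 kb. Single regions rest on few reads: 78.2% held 15 to 19 tags, in part by the rule.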

Other observations

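Along the autosomes the Pemt-/- only share of regions of 15 or more tags was lowest in the first 20% of the chromosome's length, with 183 of 6100 regions (2.60 to 3.46%), and highest in the last 20%, with 548 of 12094, 4.53% (4.17 to 4.92%). By autosome it ran from 3.02% on chromosome 16 to 4.90% on chromosome 15 (89 of 1817 regions), with 2.95% on X (8 of 271) and 9.09% on Y (1 of 11). Within 10 Mb of Pemt on chromosome 11 it was 18 of 334 regions, 5.39% (3.44 to 8.36%), an interval that includes the 3.81% of the genome. On unplaced contigs it was 10 of 152, 6.58% (3.61 to 11.7%).

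Of the 1581 Pemt-/- only regions, themselves 3.81% of the regions of 15 or more tags, 72 lay within 5 kb of another. They formed 35 groups in which each lay within 5 kb of the next, with at most 3 in a group. No like count was made for the overlapping regions, so the number is given only as a description. The 2 groups of 3 were at Gas2l3 and on chromosome 8 (49499690 to 49504772), where no transcript lay within 10 kb and the regions held 107 tags together.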
